A study of Mus musculus with 9 samples.

Results

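Depleted-state red pulp fibroblasts (RPF) of the mouse spleen were compared here with steady-state fibroblastic reticular cells (FRC) of lymph nodes, 3 libraries against 3 of the 9 in the series. All genes of the deposited count table were used, and the 3 steady-state RPF libraries served to say whether a difference from FRC was already there before depletion. Every mouse was Wt1CreERT2 RosatdTomato CD64DTR and 4 months old. Cells with a history of Wt1-driven Cre carry tdTomato, and CD64DTR puts the diphtheria toxin receptor on CD64-bearing cells, chiefly macrophages. The depleted RPF came from spleens of 6 mice given diphtheria toxin, and the FRC from lymph nodes of 6 mice not given it, of 12 mice in all. Steady-state RPF came from spleens of 6 untreated mice. Since the labels count 12 mice over the 3 groups, FRC and steady-state RPF came from the same 6 untreated mice. The labels do not tie single libraries of these groups to each other, so their contrast was fitted as if they were independent. Each library pooled 2 mice, and the FRC were sorted as tdTomato-negative and the RPF as tdTomato-positive stromal cells with CD45, gp38, CD31 and VCAM1 stains. Depleted RPF and FRC thus differ in organ, in toxin treatment, in mice and in the tdTomato gate of the sort. These cannot be told apart in their direct contrast. Organ and gate go together at steady state too, and the term organ difference stands below for both. FRC of treated mice were not analysed here. The sources used here do not give the toxin dose or the time from toxin to sort.

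FRC build the reticular scaffold of lymph nodes and make the chemokines CCL19 and CCL21, which draw T cells and dendritic cells through the receptor CCR7, and the cytokine IL-7, which keeps T cells alive. RPF build the open reticular mesh of the splenic red pulp, where macrophages clear aged red cells and recycle their iron. They supply CSF1, the growth factor on which those macrophages depend, and they descend from a splenic mesenchyme patterned by the transcription factors Tlx1, Nkx2-5 and Wt1.

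The 6 libraries held between 33139286 and 43879806 counts. Levels are CPM, read counts scaled to a common library size, here after TMM, a method that corrects for differences in RNA composition, and the values of a group are those of its replicates 1, 2 and 3. The composition did differ: the 20 most abundant genes took 22.9% to 24.7% of counts in FRC and 11.7% to 12.6% in depleted RPF, while mitochondrial genes took 1.98% to 2.24% and 0.538% to 0.678%. FRC replicate 1 had 69 counts of Y-chromosome genes, against 3536 to 4568 in the other 5 libraries, and RPF steady replicate 1 had 24. Genes of the sort were checked next. Wt1, whose promoter drives the Cre, was at 2.25, 0.273 and 2.39 CPM in FRC and at 36.8, 39.3 and 26.9 CPM in depleted RPF, with no overlap. Pdpn, which encodes gp38, was at 78.4, 71.1 and 72.9 CPM in FRC and at no more than 0.144 CPM in any depleted library. The RPF libraries thus nearly lacked the transcript of this stain, while Vcam1 was present in both groups, at 2446, 3069 and 3433 CPM in FRC and at 848, 1021 and 1236 CPM in depleted RPF. Ptprc (CD45) and Pecam1 (CD31) were at no more than 10.6 CPM in any of the 6 libraries. The labels do not say beyond the pooling of 2 mice how far libraries of a group are independent, so p-values measure the spread between these pools. In such bulk samples, fewer cells of a type and less RNA per cell cannot be told apart.

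In the direct contrast, edgeR's quasi-likelihood test at a Benjamini-Hochberg adjusted p under 0.05 called 5400 of 15103 tested genes (35.8%), 2557 higher in depleted RPF (16.9%) and 2843 lower (18.8%). Of these, 1821 and 2421 differed by more than 2-fold. With or without a call, the depleted libraries lay above all FRC libraries in 3703 tested genes and below them in 3892. A lack of overlap was thus common. The median log2 fold change over all tested genes was -0.06. Steady-state RPF differed from FRC in fewer genes, 3908 (25.9%). The median absolute log2 fold change was 1.02 for depleted and 0.79 for steady-state RPF, each against the same FRC libraries. Across genes, log2(CPM + 1) correlated at 0.771 to 0.785 between depleted RPF and FRC libraries and at 0.771 to 0.798 between steady-state RPF and FRC. Depleted and steady-state RPF correlated at 0.892 to 0.911. The ranges of the organ correlations overlapped. These are across genes, which share libraries, and carry no p.

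Each gene was then classed by 3 contrasts of the same fit: steady-state RPF against FRC, depleted RPF against FRC, and depleted against steady-state RPF. The first and second share the FRC libraries, the first and the last the steady-state RPF libraries, and the second and the last the depleted libraries. The class counts are therefore descriptions without a test. Of the 3908 steady-state organ differences, 2680 (68.6%) persisted, meaning that depleted RPF differed from FRC in the same direction. They were 1204 genes higher in RPF (7.97% of tested genes) and 1476 lower (9.77%). The contrast between the RPF groups called 3176 genes (21%), 1671 higher (11.1%) and 1505 lower (9.96%). Among the persisting genes 469 widened and 281 narrowed by a called change between the RPF groups, while 1930 had no such call. A further 560 (14.3%) closed: RPF changed toward FRC and the difference was no longer called. In 333 of these the 95% interval of the remaining difference lay within 2-fold. Another 173 (4.43%) reversed sign, and 495 (12.7%) were no longer called although no change between the RPF groups was called. Genes particular to depleted RPF, which differed from FRC and from steady-state RPF in the same direction while those latter groups did not differ by a call, numbered 1365, of which 683 were higher (4.52%) and 682 lower (4.52%). In 881 of them the difference was at least 2-fold against both groups and the depleted libraries lay beyond all 6 others. The closed count fell to 368, 320 and 361 without RPF steady replicate 1, 2 or 3, and the reversed count to 105 without RPF steady replicate 2 and to 113 without FRC replicate 2.

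**Figure D1:**
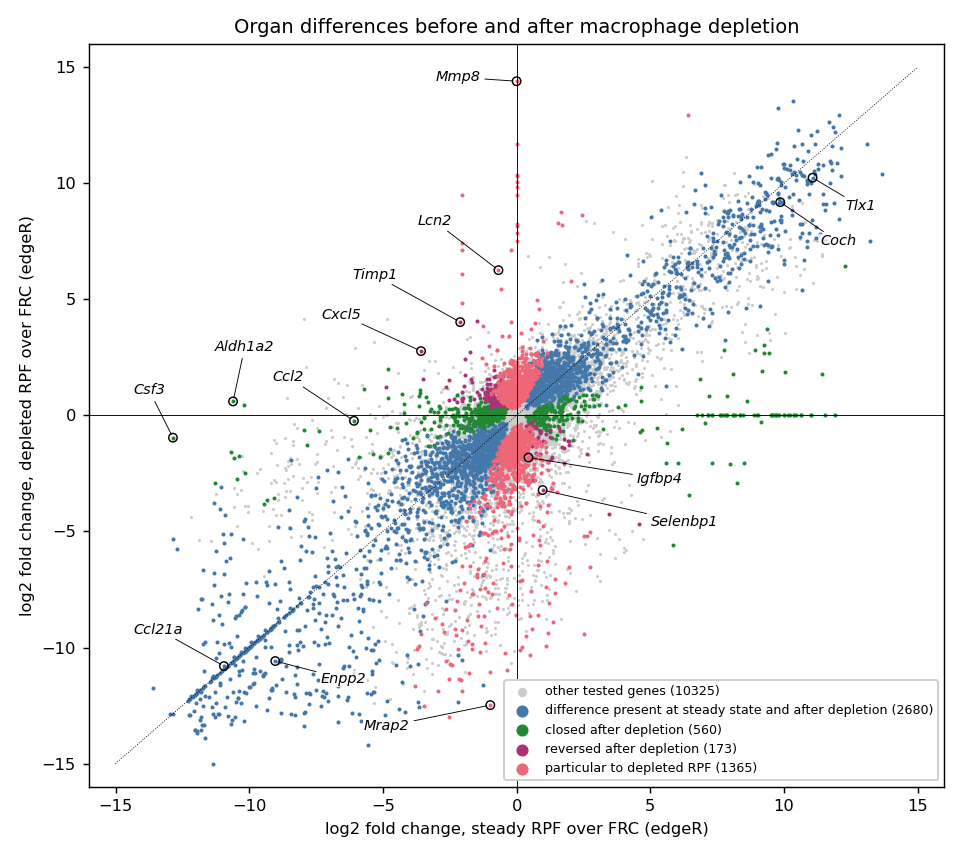
Each point is 1 of 15103 tested genes, with the log2 fold change of steady-state RPF over FRC on the x axis and of depleted RPF over FRC on the y axis, coloured by class. Most coloured genes lie near the dotted line of equal difference, closed genes lie along the horizontal axis, and genes particular to depleted RPF lie along the vertical axis. Both axes use the same FRC libraries, which by itself makes the values move together.

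The lymphoid zone programme of lymph node stroma remained low in depleted RPF. Of 18 tested genes of that list, 16 were lower than in FRC and 2 higher, against 18.8% lower and 16.9% higher over all tested genes, and their median log2 fold change was -3.97. Ccl21a (ENSMUSG00000094686, chromosome 4, 42772860 to 42773993, build mm10) was at 1191, 1021 and 1192 CPM in FRC, at 0.66, 0.494 and 0.562 CPM in steady-state RPF and at 0.517, 1.24 and 0.179 CPM in depleted RPF. The RPF groups overlapped each other and lay far below FRC, with a log2 fold change of -10.80 (SE 0.59, edgeR adjusted p = 3.07e-06) for depleted RPF. Its counts are uncertain, because the mouse genome holds near-identical copies of this gene. Ccl19, the other CCR7 ligand, was at 359, 454 and 455 CPM in FRC against 12.9, 13.1 and 12.7 CPM in depleted RPF, 32.8-fold lower (edgeR adjusted p = 3.6e-06).

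Several members of this list moved further from FRC. Enpp2, which encodes the lysophosphatidic acid producer autotaxin, was at 5812, 6534 and 6464 CPM in FRC, at 14.6, 14.8 and 6.52 CPM in steady-state RPF and at 2.79, 3.16 and 6.25 CPM in depleted RPF. All 3 depleted values lay below the lowest steady-state one, and the fall between the RPF groups was called (log2 fold change -1.56, edgeR adjusted p = 0.0163). Il7 and Tnfsf13b (BAFF, a B cell survival factor) likewise fell to means of 8.96 and 6.37 CPM from 30 and 29.9 CPM, against 160 and 359 CPM in FRC. Others moved part of the way back: Cxcl13, the B cell chemokine, rose from a mean of 72 to 173 CPM, against 1168 CPM in FRC, and the alarmin gene Il33 from 26.5 to 116 CPM, against 828 CPM. Il6 had the same pattern, with 4.19, 1.5 and 3.9 CPM in steady-state RPF, 486, 209 and 187 CPM in depleted RPF and 1222, 1080 and 1002 CPM in FRC. Its remaining difference was 3.74-fold (edgeR adjusted p = 0.00866) and the libraries did not overlap. The 2 members higher in depleted RPF were Ltbr, by 1.38-fold, and Ch25h, described with the genes particular to the depleted state.

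Matrix genes typical of FRC also remained low. In the fibrillar and interstitial matrix list 18 of 25 tested genes were lower in depleted RPF and 3 higher, with a median log2 fold change of -2.82. The shares over all tested genes were 18.8% lower and 16.9% higher. Dcn, the small proteoglycan decorin, was at 24183, 28713 and 27809 CPM in FRC, at 30.2, 47.1 and 14.4 CPM in steady-state RPF and at 15.9, 11.3 and 9.73 CPM in depleted RPF. FRC stood 2184-fold above depleted RPF (edgeR adjusted p = 1.93e-06), which were themselves below steady-state RPF (edgeR adjusted p = 0.0338). Col6a1, a chain of the beaded filament collagen VI, was at 4254, 4658 and 5332 CPM in FRC and at 29.2, 27.5 and 37.2 CPM in depleted RPF, a log2 fold change of -7.24 (SE 0.21, edgeR adjusted p = 1.5e-07). The major fibrillar collagens differed less. Col3a1 had means of 11185 CPM in FRC, 1636 CPM in steady-state and 809 CPM in depleted RPF, and Col1a1 means of 3713, 694 and 525 CPM, the last step of Col1a1 not being called (edgeR adjusted p = 0.125). Thbs1 went the other way, from 32.2 to 243 CPM between the RPF groups, and remained 11.2-fold below FRC.

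Of 11 tested complement genes 7 were lower in depleted RPF and 1 higher, against 18.8% and 16.9% over all tested genes. The 7 had been lower at steady state too. C3, the central complement protein, was at 52169, 55984 and 64371 CPM in FRC and at 2612, 2513 and 1400 CPM in depleted RPF, 26.4-fold lower (edgeR adjusted p = 4.65e-06), and its change between the RPF groups was not called. Cfb, a factor of the alternative pathway, was the higher one, at 108, 103 and 87.5 CPM against 39.6, 40.5 and 55.7 CPM in FRC. In the insulin-like growth factor (IGF) list 7 of 11 tested genes were lower and 1 higher, and 1 of the 7, Igfbp4, had been higher at steady state. Igfbp3 was at 4946, 4369 and 5349 CPM in FRC, at 879, 799 and 724 CPM in steady-state RPF and at 91.4, 120 and 105 CPM in depleted RPF, each group clear of the next. Igf1 itself had means of 253, 77.9 and 19.5 CPM in the same order, so that the organ difference in the ligand and in this binding protein was wider after depletion.

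On the splenic side, 6 of 9 tested patterning factors stayed higher in RPF than in FRC after depletion. Of the others 1 was lower and 2 were not called, where all tested genes had 16.9% higher and 18.8% lower. The lower one went against the list's direction and was classed as particular to depleted RPF. Taking all 9 genes, the median log2 fold change was 4.38. Tlx1 (ENSMUSG00000025215, chromosome 19, 45150680 to 45156943, mm10), required for spleen formation, was at 0.0911, 0.0682 and 0.388 CPM in FRC, at 371, 419 and 434 CPM in steady-state RPF and at 198, 251 and 239 CPM in depleted RPF. The depleted libraries lay below the steady-state ones without overlap, but that fall was not called (edgeR adjusted p = 0.0637), while the difference from FRC was (log2 fold change 10.24, SE 0.44, edgeR adjusted p = 1.12e-06). Tcf21 fell from 676, 657 and 813 CPM to 180, 273 and 186 CPM (edgeR adjusted p = 0.00363), still 79-fold above FRC. Nkx3-2 fell from a mean of 68.5 to 17.8 CPM, with 2 counts or fewer in any FRC library. Nkx2-3 had means of 3.67, 109 and 33.6 CPM in FRC, steady-state and depleted RPF and narrowly missed the call against FRC (edgeR adjusted p = 0.051). Meis1, a Hox cofactor, closed, with means of 40.5, 101 and 53.7 CPM in FRC, steady-state and depleted RPF.

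Hox genes, which record position along the body axis, marked the lymph node side. Of the 39 listed, 31 were in the table and 19 were tested. By edgeR 13 were lower in depleted RPF and 6 were not called, against 18.8% lower over all tested genes. Hoxd8 was at 22.1, 24.2 and 27 CPM in FRC and had no count in any RPF library, so FRC was at least 951-fold higher, taking 3 counts in the group as the floor. Hoxb2, Hoxb3, Hoxb4, Hoxb5, Hoxb7 and Hoxa5 were the 6 not called, with group means of 2.65 CPM or less.

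Coch and Npnt, a pair of genes of secreted matrix proteins, also persisted on the RPF side. Coch, which encodes the matrix protein cochlin, was at 15.9, 12.7 and 66.8 CPM in FRC, at 29285, 27685 and 31704 CPM in steady-state RPF and at 15768, 20162 and 19697 CPM in depleted RPF. The difference between the RPF groups was not called (edgeR adjusted p = 0.433) and depleted RPF was 583-fold above FRC (edgeR adjusted p = 2.54e-05). Npnt, the basement membrane protein nephronectin, was at 1.21, 0.99 and 1.58 CPM in FRC and at 1168, 1619 and 1363 CPM in depleted RPF, below the 2355 to 2675 CPM of steady-state RPF. Itga8 encodes the integrin chain that pairs to bind nephronectin, and its organ difference closed: it was at 34.4, 59.7 and 52 CPM in FRC, at 220, 253 and 241 CPM in steady-state RPF and at 67.3, 60.7 and 32.2 CPM in depleted RPF. Ligand and receptor chain thus fell into different classes.

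Growth factors of the haematopoietic niche split evenly, with 4 of 10 tested genes higher in depleted RPF and 4 lower. Among all tested genes 16.9% were higher and 18.8% lower. The CSF1 receptor ligands Csf1 and Il34 were both higher. Csf1 was at 339, 537 and 647 CPM in FRC and at 2665, 3313 and 3269 CPM in depleted RPF, a 6.07-fold difference (edgeR adjusted p = 3.95e-05) that was wider than that of steady-state RPF, at 1243 to 1510 CPM. Kitl, the ligand of the stem cell receptor KIT, was at 53.8, 59.5 and 35 CPM in FRC, at 309, 296 and 182 CPM in steady-state RPF and at 622, 503 and 494 CPM in depleted RPF. It was 10.9-fold above FRC after depletion, with no overlap between any of the groups. Gas6, a ligand of the receptors AXL and MERTK, did the opposite. It was at 4647, 5610 and 6394 CPM in FRC, at 783, 996 and 1069 CPM in steady-state RPF and at 118, 199 and 153 CPM in depleted RPF, so that a 35.4-fold difference from FRC remained after the fall (edgeR adjusted p = 1.57e-06). Lepr, the leptin receptor, had means of 1860, 350 and 23.3 CPM in the same order. Cxcl12, the CXCR4 ligand, was particular to the depleted state: it was at 22255, 23640 and 24812 CPM in FRC, at 19100, 19200 and 18108 CPM in steady-state RPF and at 10930, 10166 and 8432 CPM in depleted RPF. The steady states did not overlap either, but only the depleted difference, 2.39-fold, was called (edgeR adjusted p = 3.55e-05 against 0.0527).

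The largest differences of all included genes of other cell types, and these are given with the marker levels that moved with them. Among called protein-coding genes at a mean of 10 CPM or more in the higher group with no overlap, the 10 largest rises by log2 fold change were Mmp8, Tfec, Sema3a, Ccl24, Hemgn, Slc4a1, Actg2, Gpr171, Ctse and Cldn13. Hemgn and Slc4a1 are genes of developing red cells. Slc4a1 was at 103, 74.2 and 50.8 CPM in depleted RPF and had 1 count in all FRC libraries together, for a ratio of 7079 (95% counting interval 1270 to 279650). The 7 erythroid markers together took 0.0431% to 0.0678% of counts in depleted RPF and 4.1e-05% to 0.00788% in FRC. Of the 7, 3 were called higher and 4 were not called, against 16.9% higher over all tested genes. None of the 7 was at 0 in either group, and their part in these results was not tested. Ccl24, an eosinophil chemokine, was at 36.5, 27.2 and 15 CPM in depleted RPF and had no count in FRC, so it was at least 838-fold higher. Tfec, a transcription factor, was at 29.1, 36.4 and 51.9 CPM, also against no count.

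The 10 largest falls were Ndnf, Capn6, Car6, Akr1cl, Tmeff2, Osr1, Chia1, Lsamp, Bpifa2 and Amy1. Ndnf, which encodes a secreted protein, was at 112, 80.4 and 140 CPM in FRC and had no count in depleted RPF, at least 4316-fold lower. Osr1, a transcription factor of mesenchyme, was at 135, 133 and 166 CPM in FRC with 1 count in the depleted libraries together, a ratio of 16924 (95% counting interval 3037 to 668500). Bpifa2, Amy1, Car6 and Chia1 encode proteins secreted by salivary or other exocrine gland cells. Bpifa2 was at 8864, 5282 and 1714 CPM in FRC replicates 1, 2 and 3 and at no more than 0.891 CPM in depleted RPF. The FRC libraries thus differed widely among themselves, and limma-voom did not call it (adjusted p = 0.0884), nor Amy1 (adjusted p = 0.082), whose counts are shared with other amylase copies, nor Car6 and Chia1. A list of salivary gland genes, written after these values had been seen, took 1.14%, 0.666% and 0.212% of counts in the FRC libraries and at most 0.000457% in depleted RPF. Of its 14 tested genes 13 were lower, against 18.8% lower over all tested genes. Their part in the result was not tested. Removing these and all other listed cell type markers before the fit left 2538 genes higher and 2824 lower of 15014 tested. That removal takes out only the listed genes, and other transcripts of such cells stay in the fit. The counts could therefore change little, and they do not measure the part of such cells.

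Genes whose organ difference closed from below included inflammatory mediators. There were 328 of them (2.17% of tested genes), all low in steady-state RPF, raised after depletion and then not called against FRC. Ccl2 (ENSMUSG00000035385, chromosome 11, 82035571 to 82037453, mm10), a chemokine that draws monocytes through CCR2, was at 1201, 1362 and 1554 CPM in FRC, at 30.3, 10.8 and 19.6 CPM in steady-state RPF and at 851, 1397 and 1253 CPM in depleted RPF. The depleted and FRC libraries overlapped, with a log2 fold change of -0.23 (SE 0.33, edgeR adjusted p = 0.624), where steady-state RPF had been 6.08 lower on that scale. Csf3, the granulocyte growth factor G-CSF, had no count in steady-state RPF and was at 20.7, 10.6 and 6.47 CPM in depleted RPF and 11.7, 32.8 and 28.8 CPM in FRC. Lif, a cytokine of the IL-6 family, was at 398, 656 and 494 CPM in FRC, at 16.9 to 30.3 CPM in steady-state RPF and at 536, 306 and 209 CPM in depleted RPF. Aldh1a2, a retinoic acid synthesis enzyme, rose from 1 count in steady-state RPF to 24, 23.7 and 30.2 CPM, against 24.7, 8.26 and 18.4 CPM in FRC. The other genes that led this class by size were Fgf23, Gprc5a, Actn3 and Flrt2. Flrt2 and Actn3 were still 11.7-fold and 12.7-fold below FRC in mean level, so the lost call does not show equal levels. Actn3 kept its class in 8 and Flrt2 in 6 of 19 analyses, the reported one included.

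Other myeloid chemoattractants did not close. Of 12 tested genes of that list, 7 were lower in depleted RPF than in FRC and 1 higher, with a median log2 fold change of -2.16. All tested genes together had 18.8% lower and 16.9% higher. Ccl7, another CCR2 ligand, was at 1771, 1870 and 2061 CPM in FRC and at 29.8, 59.8 and 54.1 CPM in depleted RPF, up from 0.463 to 2.41 CPM in steady-state RPF. It was still 39.7-fold below FRC (edgeR adjusted p = 5.62e-05), unlike Ccl2. Cxcl1, a neutrophil attractant, narrowed likewise, with 4612, 5576 and 5424 CPM in FRC, 84.7, 32 and 36.6 CPM in steady-state RPF and 850, 1124 and 891 CPM in depleted RPF. Cxcl5, also a neutrophil attractant, went past FRC: it was at 263, 245 and 236 CPM there, at 40.9, 6.3 and 15.2 CPM in steady-state RPF and at 1333, 1952 and 1792 CPM in depleted RPF. All depleted libraries lay above all FRC libraries, 6.82-fold in the mean (log2 fold change 2.77, SE 0.56, edgeR adjusted p = 0.00452). The 4 neutrophil and monocyte chemokines thus ended at different places relative to FRC after rising together in RPF.

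**Figure D2:**
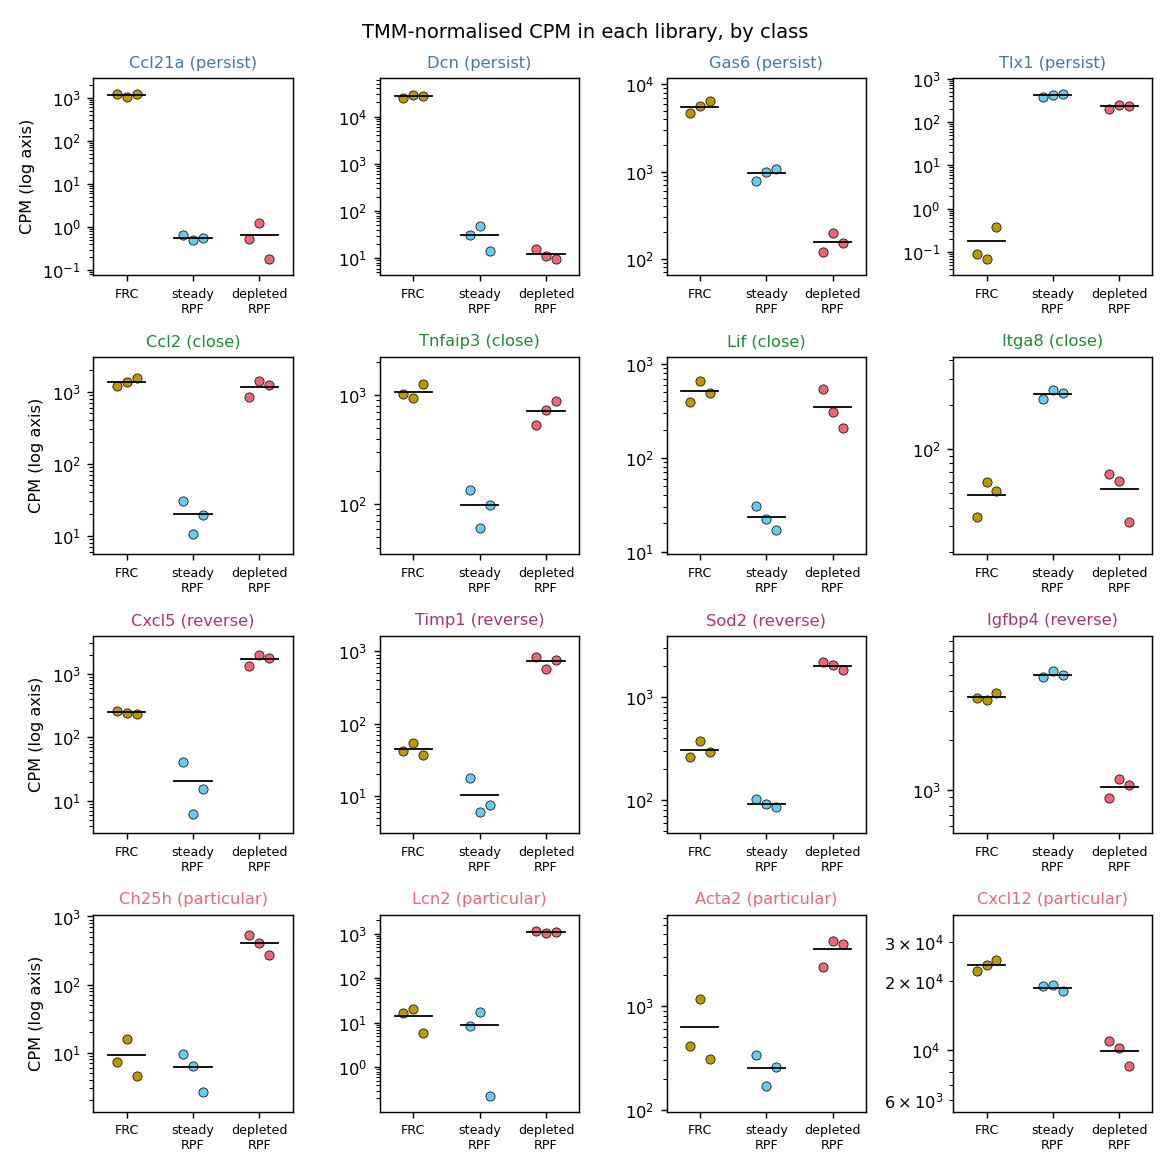
CPM in each library on a log axis for 16 genes, 4 per class in rows (persist, close, reverse, particular), with the line at the group mean and a range of its own for each panel. Depleted RPF lie beside steady-state RPF or further from FRC in the top row, beside FRC in the second, beyond FRC on the other side in the third, and apart from both groups in the last.

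Genes of NF-kB signalling and its TNF targets divided in the same way. At steady state 16 of its 17 tested genes were lower in RPF than in FRC and 1 higher, against 14.4% lower and 11.5% higher over all tested genes. After depletion 7 were lower and 3 higher, against 18.8% and 16.9% over all tested genes. The other 7 were no longer called, and all 7 had closed from below. They were the subunits Rela, Relb and Nfkb2, the inhibitors Nfkbie and Tnfaip3, and also Bcl3 and Lif. Nfkbie, an inhibitor of NF-kB, was at 176, 186 and 200 CPM in FRC, at 84.8, 85.9 and 88.4 CPM in steady-state RPF and at 160, 179 and 195 CPM in depleted RPF. Tnfaip3, the feedback inhibitor A20, was at 1018, 935 and 1274 CPM in FRC, at 135, 61.2 and 97.8 CPM in steady-state RPF and at 532, 732 and 885 CPM in depleted RPF, where the libraries did not overlap with FRC although the difference was not called (edgeR adjusted p = 0.143). Ptgs2, the inducible cyclooxygenase, stayed low: 1243, 1632 and 1647 CPM in FRC against 54.2, 52.3 and 53.5 CPM in depleted RPF, 28.3-fold (edgeR adjusted p = 9.86e-07). Sod2, the mitochondrial superoxide dismutase, reversed, from 261, 371 and 296 CPM in FRC and 84.5 to 102 CPM in steady-state RPF to 2230, 2049 and 1836 CPM in depleted RPF. Tnfaip2 reversed too, with means of 354, 89.9 and 843 CPM in FRC, steady-state and depleted RPF. Immediate early and dissociation stress genes were also higher in FRC, with 17 of 18 tested genes lower in depleted RPF and 1 not called. Egr1, an immediate early transcription factor, was at 14616, 14990 and 17466 CPM in FRC and at 2378, 2407 and 2703 CPM in depleted RPF. The part of that list in the chemokine and NF-kB differences was not tested.

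Promoter sequences are shown for 3 of the 7 closed NF-kB genes and for 2 genes particular to depleted RPF, so that the binding motif of NF-kB can be looked for. They were picked by hand as examples, so their matches say nothing about their classes. Promoters of Rela, Bcl3 and Lif are not shown, and none was matched to Relb. RefSeq promoters (build GRCm38.p6, 250 bases before to 50 after the start site) matched 10711 of 15103 tested genes. Each line gives the 250 bases before the start site, 5′ to 3′, with motif matches in capitals.
Tnfaip3, chr10:19015411-19015660, minus strand: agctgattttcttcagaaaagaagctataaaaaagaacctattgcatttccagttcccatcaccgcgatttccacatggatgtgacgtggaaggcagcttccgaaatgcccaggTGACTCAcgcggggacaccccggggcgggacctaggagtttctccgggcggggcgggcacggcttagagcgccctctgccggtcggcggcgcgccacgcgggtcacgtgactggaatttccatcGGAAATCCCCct
Nfkbie, chr17:45555450-45555699, plus strand: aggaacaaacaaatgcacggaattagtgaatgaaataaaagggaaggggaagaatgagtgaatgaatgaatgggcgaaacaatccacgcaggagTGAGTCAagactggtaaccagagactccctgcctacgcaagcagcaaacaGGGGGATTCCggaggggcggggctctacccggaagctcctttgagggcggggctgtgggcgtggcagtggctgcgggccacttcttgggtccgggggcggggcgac
Nfkb2, chr19:46304487-46304736, plus strand: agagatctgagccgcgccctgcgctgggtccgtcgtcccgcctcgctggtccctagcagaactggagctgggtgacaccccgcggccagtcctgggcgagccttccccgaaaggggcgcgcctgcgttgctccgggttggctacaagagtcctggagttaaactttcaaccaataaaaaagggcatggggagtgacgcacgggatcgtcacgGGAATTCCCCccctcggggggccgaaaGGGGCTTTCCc
Sdc4, chr2:164443189-164443438, minus strand: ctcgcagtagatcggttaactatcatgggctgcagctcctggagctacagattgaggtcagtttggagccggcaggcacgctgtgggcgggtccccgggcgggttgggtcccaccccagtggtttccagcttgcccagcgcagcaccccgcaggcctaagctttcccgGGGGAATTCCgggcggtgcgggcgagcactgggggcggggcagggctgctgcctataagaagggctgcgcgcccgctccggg
Mmp13, chr9:7272264-7272513, plus strand: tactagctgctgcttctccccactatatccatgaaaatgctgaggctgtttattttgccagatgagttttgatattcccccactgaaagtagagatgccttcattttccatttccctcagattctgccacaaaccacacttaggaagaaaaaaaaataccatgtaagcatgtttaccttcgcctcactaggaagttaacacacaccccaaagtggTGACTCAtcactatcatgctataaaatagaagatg
The motifs searched, on both strands, were GGG, any 3 bases and TTCC for NF-kB, TGANTCA for AP-1 and TTGCNNAA for C/EBP, and their matches do not overlap in these sequences. Nfkb2 had NF-kB matches beginning at -38 and -11 from the start site, Nfkbie at -106, Tnfaip3 at -12 and Sdc4 at -82, while Mmp13 had an AP-1 match at -35. AP-1 matches also began at -136 in Tnfaip3 and at -156 in Nfkbie. A further NF-kB match in Tnfaip3 began 34 bases after the start site, outside the stretch printed. The RefSeq start of Sdc4 lies 699 bases from the start of the deposited gene, and that of Tnfaip3 247 bases. Of 249 promoters of genes closed from below, 26 (10.4%) held the NF-kB motif, against 6.27% of all promoters, 7.56% of those particular and higher, and 2.45% of those closed from above. The AP-1 motif stood in 6.43% of promoters closed from below, 3.87% of those particular and higher, and 4.65% of all. For the C/EBP motif these shares were 5.22%, 6.46% and 8.27%. A match is a description of the letters, and no test was made.

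Differences that closed from above, 232 genes (1.54%), were of genes high in steady-state RPF. They included markers of red pulp macrophages: Cd5l was at 12.8, 16.7 and 9.03 CPM in steady-state RPF and had no count in FRC or depleted RPF, and Cd163 was at 8.6 to 18.5 CPM against 0.513 CPM or less. The 13 measured macrophage markers together took 0.0267% to 0.0311% of counts in steady-state RPF, 0.00739% to 0.00959% in FRC and 0.000482% to 0.00169% in depleted RPF. In the contrast with FRC 5 of 12 tested markers were lower and 7 not called, against 18.8% lower over all tested genes. C1qa, Cd5l, Adgre1 and Fcgr1 were at 0 in depleted RPF, and the part of these cells in the results was not tested. Fcgr1, the gene of CD64, had means of 0.0101 CPM in FRC and 0.879 CPM in steady-state RPF and was not tested. Genes outside that list closed as well. Chrna6, a nicotinic receptor subunit, was at 45.9, 71.2 and 85.6 CPM in steady-state RPF, at 3.62, 0 and 0 CPM in depleted RPF and had 1 count in FRC. It kept its class in 9 of 19 analyses and Cd163 in 10 of 19, and the sign of their remaining difference from FRC varied among these. Flvcr2, a solute transporter, was at 80.6, 84.6 and 47.4 CPM in steady-state RPF and at 1.98, 6.99 and 3.95 CPM in depleted RPF, overlapping with the 0.941 to 3.89 CPM of FRC. Bgn, the proteoglycan biglycan, closed at a high level, with means of 2871 CPM in FRC, 4624 CPM in steady-state and 3044 CPM in depleted RPF. Il6st, the shared receptor chain gp130 of the IL-6 family, had means of 871, 1306 and 699 CPM.

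Reversals were mostly from below, 131 genes (0.867%), against 42 (0.278%) from above. Plaur, the urokinase receptor, led them: it was at 28.7, 37.8 and 42.6 CPM in FRC, at 16.3, 11.9 and 11.1 CPM in steady-state RPF and at 760, 488 and 556 CPM in depleted RPF. The depleted libraries were 16.5-fold above FRC (log2 fold change 4.05, SE 0.25, edgeR adjusted p = 5.22e-06) with no overlap between any groups. Timp1 (ENSMUSG00000001131, chromosome X, 20870166 to 20874735, mm10), an inhibitor of matrix metalloproteinases, was at 42.5, 54.7 and 37.5 CPM in FRC, at 17.8, 5.94 and 7.41 CPM in steady-state RPF and at 846, 573 and 762 CPM in depleted RPF (edgeR adjusted p = 0.000108). Slc7a1, a transporter of cationic amino acids, had means of 56.6, 31.8 and 221 CPM in FRC, steady-state and depleted RPF. It was classed as reversed in only 8 of 20 analyses, its steady-state difference being near the threshold (edgeR adjusted p = 0.0417). Mmp3, stromelysin 1, was at 865, 1836 and 1700 CPM in FRC, at 24.6 to 66.9 CPM in steady-state RPF and at 2406, 3046 and 4914 CPM in depleted RPF, its call against FRC being near the threshold (edgeR adjusted p = 0.0495). The plasma copper protein gene Cp had means of 1604, 529 and 2602 CPM.

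From above, Selenbp1, a selenium-binding protein gene, was at 102, 95.4 and 123 CPM in FRC, at 187, 212 and 231 CPM in steady-state RPF and at 9.45, 14.1 and 10.9 CPM in depleted RPF. It went from 1.96-fold above FRC to 9.31-fold below (edgeR adjusted p = 4.26e-06). Igfbp4, an IGF-binding protein, was at 3622, 3514 and 3890 CPM in FRC, at 4820, 5228 and 4957 CPM in steady-state RPF and at 895, 1168 and 1069 CPM in depleted RPF. Hfe, a regulator of iron uptake, had means of 138, 327 and 71.5 CPM in FRC, steady-state and depleted RPF. Olfml1, Arhgap15, AI464131 and Kcnj8 completed the 6 largest, with depleted means of 12.2, 3.58, 12.9 and 48.4 CPM against 83.8, 15, 50.5 and 179 CPM in FRC. Selenbp1 kept its class in all 20 analyses, Kcnj8 and Igfbp4 in 15, Olfml1 and Arhgap15 in 14 and AI464131 in 13. The call of Arhgap15 against FRC was lost with limma-voom (adjusted p = 0.109). Kcnj8 is also a pericyte marker. The pericyte and smooth muscle list took 0.178% to 0.221% of counts in depleted RPF and 0.233% to 0.293% in FRC. Of 7 tested genes 4 were lower and 1 higher, against 18.8% and 16.9% over all tested genes. None was at 0 in either group, Abcc9 had means of 1579 CPM in FRC and 4.51 CPM in depleted RPF, Rgs5 of 323 and 0.111 CPM, and the part of such cells was not tested.

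Mmp8, Lcn2, Ch25h, Tm4sf1, Oacyl and Sdc4 were among the genes particular to depleted RPF and higher there. Mmp8 (ENSMUSG00000005800, chromosome 9, 7558456 to 7568485, mm10), the collagenase known from neutrophils, was at 58, 54 and 102 CPM in depleted RPF and had no count in any of the other 6 libraries, at least 2275-fold higher than FRC. Mmp13, another collagenase, was at 6.81, 7.56 and 18.9 CPM, again against no count, at least 354-fold. The neutrophil marker list took 0.000253% to 0.00506% of counts in depleted RPF and 7.86e-05% to 0.000542% in FRC, which overlap. Of 7 tested genes 1 was higher (Ngp) and 6 were not called, where 16.9% of all tested genes were higher. None of the 8 markers was at 0 in depleted RPF, and Camp was at 0 in FRC. In steady-state RPF, where Mmp8 had no count, the neutrophil list took 0.00563% to 0.0419% of counts. The part of neutrophils in these results was not tested. Lcn2, the siderophore-binding protein lipocalin 2, was at 16.8, 20.3 and 5.88 CPM in FRC, at 8.69, 17.6 and 0.232 CPM in steady-state RPF and at 1149, 1029 and 1105 CPM in depleted RPF. It was 76.4-fold above FRC (edgeR adjusted p = 0.00254), with close replicates. Ch25h (ENSMUSG00000050370, chromosome 19, 34473786 to 34475135, mm10), which makes 25-hydroxycholesterol, was at 7.32, 16 and 4.59 CPM in FRC, at 9.52, 6.38 and 2.65 CPM in steady-state RPF and at 537, 413 and 271 CPM in depleted RPF. Tm4sf1, a membrane protein, was at 653, 676 and 691 CPM against 10.2, 30.5 and 23.7 CPM in FRC, and Oacyl was at 20.4, 10.7 and 17 CPM against 0.209 CPM or less. Sdc4, the heparan sulphate proteoglycan syndecan 4, was at 412, 791 and 726 CPM in FRC, at 570, 460 and 566 CPM in steady-state RPF and at 6109, 6684 and 7711 CPM in depleted RPF, 10.6-fold above FRC (edgeR adjusted p = 1.21e-05).

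Metalloproteinases as a list did not share this direction: 5 of 13 tested genes of proteases and inhibitors were higher in depleted RPF and 7 lower. The background over all tested genes was 16.9% higher and 18.8% lower. Mmp2, the gelatinase of mesenchyme, was at 1859, 2242 and 2245 CPM in FRC and at 134, 131 and 135 CPM in depleted RPF, 15.9-fold lower (edgeR adjusted p = 8.87e-07). Timp3 was higher, at 1987, 1655 and 1304 CPM against 133, 163 and 116 CPM, and Timp2 was particular and lower by 1.33-fold. Acute phase and IL-6 response genes were split as well, with 6 of 16 tested higher and 6 lower. Cebpb and Cebpd, transcription factors of that response, closed from below, at means of 632 and 902 CPM in depleted RPF against 740 and 947 CPM in FRC. Osmr, the oncostatin M receptor, was particular and higher, at 749, 562 and 531 CPM against 440, 417 and 351 CPM.

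Contractile genes were higher in depleted RPF, 9 of 14 tested with 5 not called, against 16.9% higher over all tested genes. Of the 9, 4 were particular to the depleted state and 5 had been higher already at steady state. Acta2, smooth muscle actin, was at 415, 1175 and 308 CPM in FRC, at 340, 169 and 257 CPM in steady-state RPF and at 2386, 4280 and 3940 CPM in depleted RPF. FRC replicate 2 was the highest of its group in Acta2, and in Tpm2 (251 CPM, against 102 and 104 CPM) and Myh11 (101 CPM, against 52.7 and 41.2 CPM) as well. Tagln, which encodes transgelin, was at 9.38, 22.4 and 7.9 CPM in FRC, at 109, 61.3 and 59.2 CPM in steady-state RPF and at 594, 742 and 649 CPM in depleted RPF, 50-fold above FRC. Myh11, the smooth muscle myosin, was not called, at 16.3, 51.4 and 35 CPM in depleted RPF. Synpo2 and Itga8 of this list closed from above.

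Basement membrane genes divided by chain, with 7 of 18 tested higher and 7 lower, against 16.9% and 18.8% over all tested genes. The collagen IV chains Col4a1 and Col4a2 rose together: Col4a1 was at 2020, 2093 and 2158 CPM in FRC, at 1533, 1555 and 1894 CPM in steady-state RPF and at 6615, 7122 and 6624 CPM in depleted RPF. Col4a2 had 1012, 1141 and 1043 CPM, 846, 888 and 982 CPM, and 3378, 3378 and 3579 CPM in the same order. Col4a1 was classed as reversed and Col4a2 as particular only because the small steady-state differences lay on either side of the threshold (edgeR adjusted p = 0.0427 and 0.106), and their differences from FRC after depletion were 3.25-fold and 3.23-fold. Col4a1 was classed as reversed in 5 of 20 analyses. The nidogens Nid1 and Nid2, which link collagen IV to laminin, were 3.24-fold and 4.34-fold above FRC. The laminin chain genes Lama4 and Lamb1 were 29.1-fold and 4.47-fold below it. Lama2, a further laminin chain, was particular and lower, at 124, 140 and 119 CPM in FRC, 130 to 172 CPM in steady-state RPF and 69.2, 54.8 and 43 CPM in depleted RPF. Hspg2, perlecan, was not called, with means of 1229 and 896 CPM.

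Genes particular to depleted RPF and lower than both other groups were led by Mrap2, Akr1c19, Tmem44, Mturn, Plxnc1 and Fmo5. Mrap2, an accessory protein of melanocortin receptors, was at 63.7, 62.2 and 78.6 CPM in FRC, at 29.2, 24 and 50.1 CPM in steady-state RPF and had 1 count in the depleted libraries together, a ratio to FRC of 7990 (95% counting interval 1434 to 315620). FRC was above steady-state RPF in every library of Mrap2, though that difference was not called (edgeR adjusted p = 0.0644). Mturn was at 60.4, 102 and 84.9 CPM in FRC and at 19.2, 23.2 and 14.7 CPM in steady-state RPF. These did not overlap either, again without a call (edgeR adjusted p = 0.0931). In depleted RPF Mturn was at 1.23, 0 and 0.156 CPM, and it kept its class in 16 of 20 analyses. Fmo5, a monooxygenase, was at 28.8, 41.2 and 40.5 CPM in FRC, at 21.7, 39.9 and 27.4 CPM in steady-state RPF and at 0.0862, 2.78 and 0.156 CPM in depleted RPF. Plxnc1, a semaphorin receptor, was at 21.8, 3.11 and 5.61 CPM in FRC and at 0.747 CPM or less in depleted RPF. Its call against FRC was lost in 6 of 19 alternative analyses, among them those without FRC replicate 1, RPF steady replicate 3, or RPF depleted replicate 2 or 3. Flt3l, the growth factor of dendritic cells, was lower at a low level, at 5.25, 7.71 and 7.28 CPM in FRC and 1.12, 0.945 and 0.915 CPM in depleted RPF.

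A list of ribosome biogenesis and nucleolar genes, chosen after values of these data had been seen, was one-sided in the direct contrast. Of 39 tested genes 29 were higher in depleted RPF and 10 were not called, with a median log2 fold change of 1.44. Beside this, 16.9% of all tested genes were higher and 18.8% lower. At steady state only 1 had been higher than FRC and 10 were lower, against 11.5% and 14.4% over all tested genes. By class, 20 of the listed genes were particular, 6 reversed and 4 closed. Ncl, which encodes nucleolin, was at 336, 357 and 342 CPM in FRC, at 244, 194 and 253 CPM in steady-state RPF and at 1284, 866 and 956 CPM in depleted RPF. Npm1, nucleophosmin, had means of 92.8, 52 and 296 CPM. Wdr12 and Rrp12, factors of ribosomal subunit assembly, had means of 67.3 and 72.7 CPM in depleted RPF against 10.8 and 10.2 CPM in FRC. The list was picked for its direction, so this count supports nothing beyond itself. A list of YAP and TAZ targets, picked in the same way, had 9 of 22 tested genes higher and 5 lower. Ctgf was at 70, 49.8 and 16.7 CPM in FRC, at 22.5 to 58.4 CPM in steady-state RPF and at 964, 571 and 655 CPM in depleted RPF. Tgfb2, Igfbp3, F3, Rbms3 and Gadd45a were the 5 lower.

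**Figure D3:**
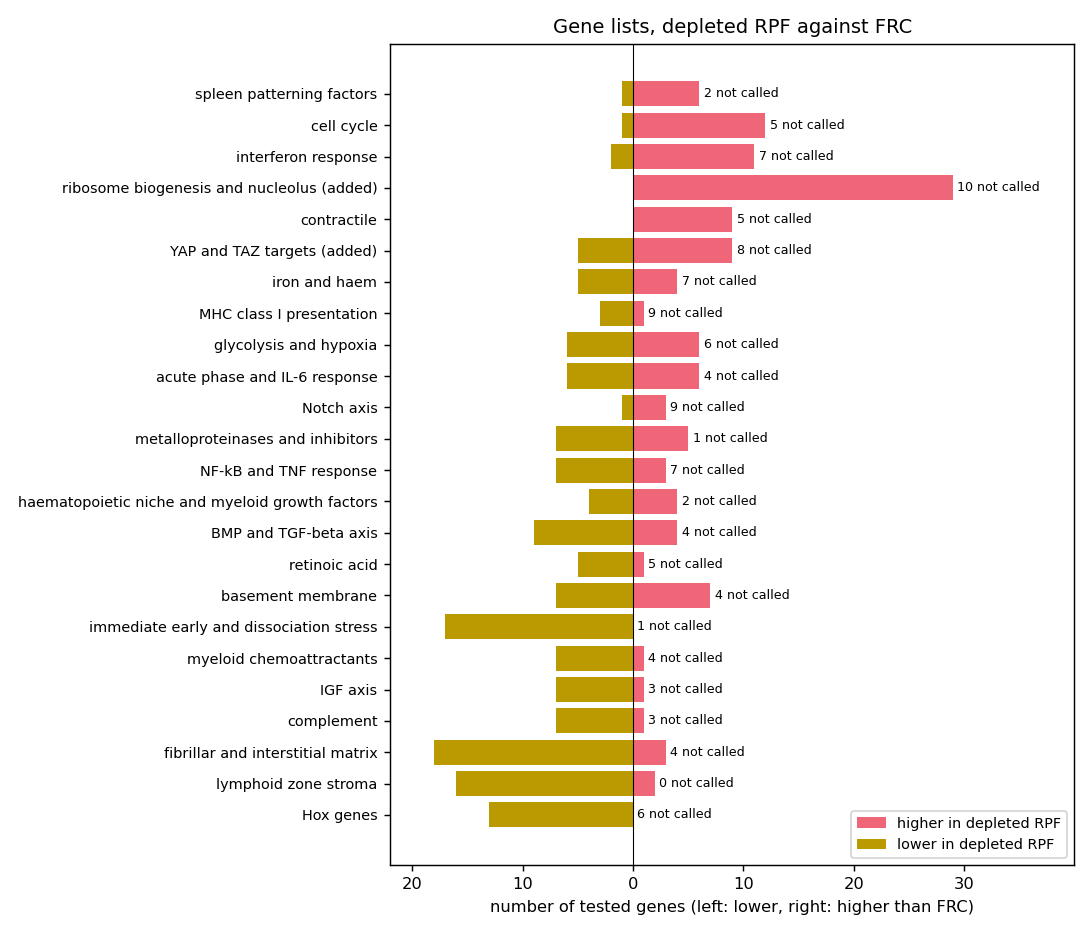
Number of tested genes of each list called higher (right) or lower (left) in depleted RPF than in FRC, with the number not called, ordered by the list's median log2 fold change. Hox, lymphoid zone and fibrillar matrix genes are at the bottom and spleen patterning genes at the top; the lists marked as added were chosen after values had been seen.

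Of 16 tested iron and haem genes 4 were higher and 5 lower, not far from the 16.9% and 18.8% over all tested genes. Slc40a1, the iron exporter ferroportin, was at 1.18, 17.4 and 1.73 CPM in FRC, at 3226, 2037 and 2446 CPM in steady-state RPF and at 188, 135 and 174 CPM in depleted RPF, so the organ difference narrowed to 24.5-fold (edgeR adjusted p = 0.00442). Hmox1, haem oxygenase 1, was particular and higher, at 521, 475 and 221 CPM against 80.3, 93.4 and 68.4 CPM in FRC. Slc39a14, an importer of iron and zinc, closed from below, at 115, 97.3 and 90.8 CPM against 57.5, 123 and 94.3 CPM. Bmp6, the ligand that raises hepcidin in the liver, had means of 167 and 158 CPM in steady-state and depleted RPF and was at 2.87 CPM or less in FRC.

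Of 20 tested interferon response genes 11 were higher in depleted RPF and 2 lower, against 16.9% and 18.8% over all tested genes, with a median log2 fold change of 1.62. Of the 11, 8 had been higher at steady state. Ifit3 was at 38, 11.1 and 14.5 CPM in FRC, at 253, 116 and 236 CPM in steady-state RPF and at 178, 247 and 244 CPM in depleted RPF. The lower ones were the T cell chemokines Cxcl9 and Cxcl10, the latter at 1148, 1100 and 2180 CPM in FRC and 235, 470 and 466 CPM in depleted RPF. Retinoic acid genes had 1 of 11 higher and 5 lower, MHC class I genes 1 of 13 and 3, the BMP and TGF-beta axis 4 of 17 and 9, and the Notch axis 3 of 13 and 1. Over all tested genes 16.9% were higher and 18.8% lower, so the MHC class I and Notch counts lay near the background. Tapbp, which loads peptides on MHC class I, had means of 1129 and 353 CPM. Tgfbi, a matrix protein induced by TGF-beta, was 30.9-fold lower and Tgfb1, the ligand, 18.4-fold higher. Dll1, a Notch ligand, was at 479, 403 and 376 CPM in depleted RPF and at 8.56, 0.341 and 5.37 CPM in FRC.

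Glycolysis and hypoxia genes were 6 higher and 6 lower of 18 tested, against 16.9% and 18.8% over all tested genes. Ldha, lactate dehydrogenase A, was particular and higher, at 1554, 1385 and 1147 CPM against 430, 590 and 497 CPM in FRC, while the angiogenic factor Vegfa was at 193, 207 and 144 CPM against 631, 804 and 1113 CPM. The counts of Gapdh and Pgk1 are uncertain because of near-identical copies. Cell cycle genes were higher, 12 of 18 tested against 1 lower, at low levels: Mki67, a proliferation marker, was at 4.11, 3.97 and 3.66 CPM in depleted RPF and had no count in FRC. The erythroid markers given above moved with this list too, in steady-state RPF as well (0.0257% to 0.0946% of counts), and their part was not tested. Ccnd1, cyclin D1, was the lower one, at 15.6, 12 and 27.6 CPM in FRC and 2.99, 1.05 and 3.57 CPM in depleted RPF.

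Markers of other cell types differed between the groups by small shares of counts. In 11 of the 13 lists the 3 depleted and 3 FRC libraries did not overlap, each with an exact two-sided permutation p of 0.1, the smallest that 3 against 3 allow (0.118 adjusted over the 13). Single genes often did the same, 3703 above and 3892 below FRC of 15103 tested. Erythroid, blood endothelial, platelet and mesothelial shares were higher in depleted RPF, the mesothelial one through Wt1. Macrophage, monocyte, B cell, T cell, lymphatic, adipocyte and pericyte shares were lower. Lymphatic markers took 0.0826% to 0.0985% of counts in FRC, nearly all from Ccl21a, with 1 of 5 tested genes lower. Lyve1 and Mmrn1 were at 0 in depleted RPF and had means of 0.212 and 0.0227 CPM in FRC. Blood endothelial markers took 0.0263% to 0.0467% in depleted RPF and 0.0084% to 0.0104% in FRC, chiefly through Plvap. Of 9 tested genes 2 were higher and 1 lower, near the 16.9% and 18.8% over all tested genes. Adipocyte markers took 0.119% to 0.141% in FRC and at most 0.00164% in depleted RPF, mostly through the lipase gene Lpl, at 1499, 1652 and 1383 CPM against 1.06, 8.26 and 4.31 CPM. Adipoq and Cfd, which define mature adipocytes, were at 0 in depleted RPF and had means of 0.364 and 0.445 CPM in FRC. The part of these cells in the gene results was not tested.

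**Figure D4:**
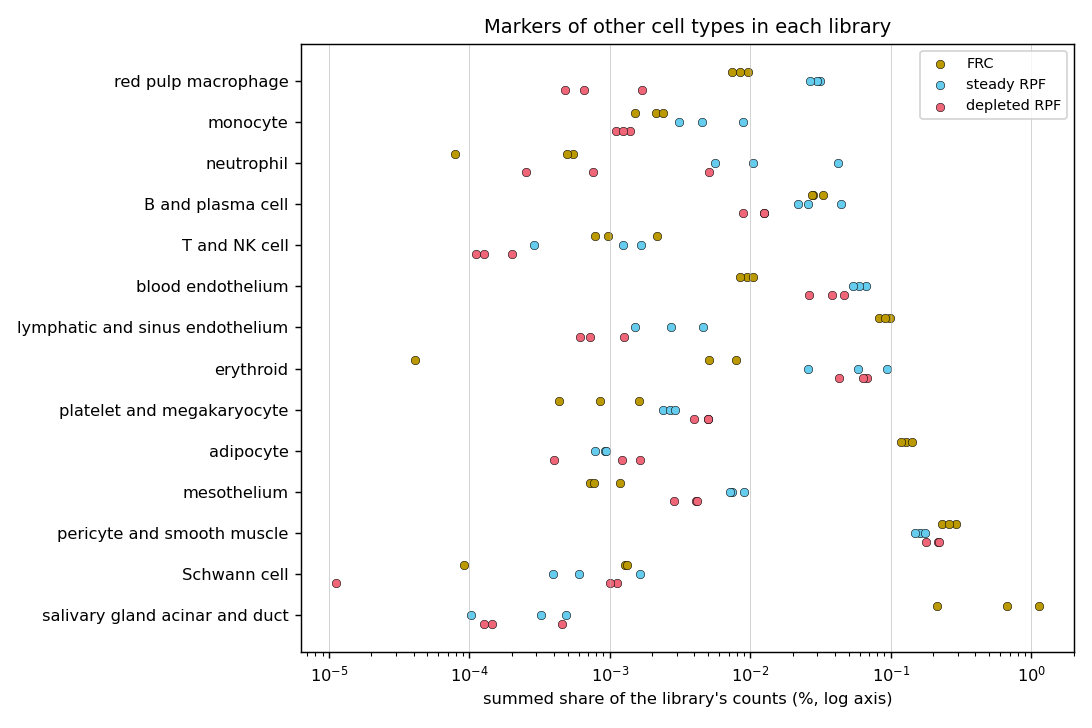
Summed share of each library's counts taken by the markers of 13 other cell types and by the added salivary gland list, on a log axis, with 1 point per library and group. The salivary gland, adipocyte and lymphatic points of FRC lie far to the right of those of both RPF groups, and the erythroid points of FRC lie to the left.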

How the data were processed

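The authors deposited raw read counts per gene, whole numbers with no normalization, for polyadenylated RNA of sorted cells. Per the submitters' processing notes, the tools were STAR 2.5.3a, HTSeq 0.6.1p1, Bowtie2 2.2.8 and cutadapt 1.10, and the build was mm10. The strand setting and annotation release do not appear there, so overlapping and antisense genes, and near-identical copies, are uncertain. Groups came from the sample labels and columns were matched to samples by name. A further 24 per-sample columns were not used.

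The 27370 genes of the table, 881 of them without a count, were filtered with filterByExpr to 15103. Counts were fitted in edgeR 4.0.16 (R 4.3.3) with TMM scaling, a robust quasi-likelihood fit over 3 groups and 9 libraries (6 residual degrees of freedom) and Benjamini-Hochberg adjustment over all tested genes, called at 0.05. Fitting all 3 groups shares 1 estimate of the spread. Folds are ratios of mean CPM, with a floor of 3 counts per group where a group had none and an exact 95% counting interval where it had 1 to 3. Such intervals and floors cover counting error only, since reads carry no molecular identifiers. Marker shares were compared by exact permutation.

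Genes were named by a rule: the 10 largest rises and falls, the 6 largest of each class and direction at 10 CPM or more without overlap, the 3 smallest p-values of each list, the sort genes, the 2 leading genes of each marker list, and further list members as examples. Not every gene under the rule is described, and some are not reported here. The comparison, its classes and the gene lists were chosen with earlier results of these data known. The procedure was tested on simulated data. Alternatives were limma 3.58.1 (voom), DESeq2 1.42.0, other scalings, filters and contrasts, and leaving out libraries. Figures used matplotlib 3.10.9.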

Additional observations from a re-analysis of the deposited data

How the results depend on the processing

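No paired analysis was possible because the replicate numbers only follow the order of the samples. Depleted RPF and FRC came from different mice, and for steady-state RPF and FRC, which share 6 mice, the labels do not say which libraries belong together. Low Y-linked counts set FRC replicate 1 (69) and RPF steady replicate 1 (24) apart, but they do not match the other libraries of these groups. Tested against a 1.5-fold change in place of no change, 1579 genes were higher in depleted RPF, 1771 organ differences persisted, 310 closed, 27 reversed and 755 genes were particular to depleted RPF, as this test asks for larger differences. Without the 2 libraries lacking Y-linked reads (FRC replicate 1 and RPF steady replicate 1), 358 closed and 98 reversed. Leaving out each library in turn gave 320 to 544 closed, 105 to 132 reversed, 2059 to 2428 persisting and 935 to 1358 particular genes, with 2009 to 2353 genes higher and 2283 to 2681 lower. DESeq2 called 2976 higher and 3482 lower, limma-voom 2876 and 3182, and each contrast fitted alone 2094 and 2078. Of 142 named genes followed in 2666 pairs of gene and setting, 37 pairs lost the call, 35 gained it and no called difference changed direction. Differences that were not called could change sign, as that of Chrna6 did, from -2.06 to 8.51 on the log2 scale. The median log2 fold change of all genes was -0.06 with TMM, 0 with upper quartile scaling and -0.09 with RLE, and the share of higher calls 47.4%, 50.6% with upper quartile scaling. Each library left out leaves 5 residual degrees of freedom or fewer, and genes at a few counts per library cannot show small differences at this depth.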
